A study of Mus musculus with 8 samples.

Results

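Imprinted genes were followed in pituitary gonadotropes sorted from mice. The 44 genes were chosen by symbol as known imprinted genes of the mouse. The rule uses no measured value, although earlier results of these data were known when the list was made, and each was found as 1 entry among the 55523 entries of the count table. Gonadotropes were EGFP-positive cells of Ad4BP-BAC-EGFP mice, in which a bacterial artificial chromosome carrying the *Nr5a1* (Ad4BP) locus drives the green fluorescent protein, collected by cell sorting from the pituitary gland. There were 4 female samples (replicates 1 to 4) and 4 male samples (replicates 1 to 4), all with the transgene and with no other allele or treatment named. Ages are not given in the sources used here, nor is the number of animals behind a sample, so the spread between samples may be partly technical. Male replicate 1 was left out of the study's own comparison because its profile stood apart, and its values are given separately here. Male replicates 2 to 4 are called the retained males.

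Imprinted genes are transcribed mainly from the allele inherited from the mother or mainly from that inherited from the father. They lie in clusters, each governed by a control region whose DNA methylation is set in a parent's germ line and kept after fertilization by proteins such as ZFP57, ZFP445 and TRIM28. Many act in growth, in endocrine tissues and in the hypothalamus and pituitary, and some clusters are expressed from both alleles in particular tissues or isoforms. Reads were counted per gene, so the allele that a read came from was not measured, and the words maternal and paternal below give the known direction of imprinting in mice as background.

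Total counts were between 18774578 and 31302588 per sample, and the floor of 3 counts corresponded to between 0.0958 and 0.160 CPM, a limit for counting error alone, since PCR copies of a molecule are counted more than once. CPM give the counts of a gene in proportion to its library total, after the totals were scaled with the trimmed mean of M values (TMM) over the 8 samples. The 6 gonadotrope markers, which include *Lhb*, *Fshb* and *Gnrhr*, were above 0 in each sample and summed to between 23822 and 36702 CPM in females, between 70589 and 78730.3 CPM in the retained males and 31057 CPM in male replicate 1. Within that list *Nr5a1* went the other way, at 863 to 1263 CPM in females and 590.1 to 794 CPM in the retained males, without overlap (log2 fold change −0.61; edgeR adjusted p = 0.130). In male replicate 1 it was 16.4 CPM. *Cga* was between 13376 and 25023 CPM in females and between 24438 and 51224 CPM in the retained males. *Fshb* was between 1398 and 5708 CPM in females and between 17066 and 30664 CPM in the retained males. In these males *Cga* and *Fshb* were the highest of the list. The 3 somatotrope markers *Gh*, *Ghrhr* and *Pou1f1*, none of which was at 0 in any sample, summed to between 12429.5 and 58249 CPM in females, between 64564 and 143897 CPM in the retained males and 30335 CPM in male replicate 1. Hormone genes of further cell types were also high. *Pomc*, of corticotropes and melanotropes, was between 12385 and 22159 CPM in females, between 10061 and 28871 CPM in the retained males and 18827 CPM in male replicate 1. *Prl*, of lactotropes, was between 4677 and 18234 CPM in females, between 6179 and 15841 CPM in the retained males and 1629.9 CPM in male replicate 1. Of the marker lists of other cell types, *Pou1f1* was past the threshold of the sex comparison below (adjusted p under 0.05) and higher in the retained males (log2 fold change 1.96; edgeR adjusted p = 0.0494). Of the 3 thyrotrope markers 0 were past it, and their samples of the sexes did not overlap, with *Tshb* (log2 fold change 2.35; edgeR adjusted p = 0.0525) and *Trhr* (1.65; edgeR adjusted p = 0.183) above the females in the retained males and *Dio2* (−1.22; edgeR adjusted p = 0.0721) below them. Of the 6 stem cell markers, *Sox9* (log2 fold change −1.02; edgeR adjusted p = 0.0417) and *Cdh26* (−1.62; edgeR adjusted p = 0.0470) were past it and higher in females, while the sum of the list overlapped, at 843 to 1323 CPM in females and 851 to 1156 CPM in the retained males. Of the gonadotrope markers, *Fshb* was past it and higher in the retained males (log2 fold change 3.13; edgeR adjusted p = 0.0449). *Malat1*, an RNA held in the nucleus, was between 12187 and 15191 CPM in females and between 7684 and 9919.8 CPM in the retained males, without overlap (log2 fold change −0.57; edgeR adjusted p = 0.0938). The part of these markers and of *Malat1* in the results below was not tested. In bulk samples, fewer cells of a type and less RNA per cell cannot be told apart.

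Promoter sequences of 4 imprinted loci are shown because their genes are those to which the comparisons below return, *Inpp5f* as the member past the threshold between the sexes and *Peg3*, *Usp29*, *Mest* and *Nap1l5* as paternal genes with known control regions at their start. They are stretches upstream of the RefSeq starts in GRCm38.p6 that hold no annotated exon, written 5′ to 3′ on the strand of the gene. Capitals mark CpG dinucleotides, the bases that are methylated, in the *Inpp5f* and *Peg3*-*Usp29* stretches. In the *Mest* and *Nap1l5* stretches they mark TGCCGC, the hexamer known to be bound by ZFP57 when its CpG is methylated, or its complement GCGGCA.
Inpp5f, chr7:128611115-128611327, plus strand: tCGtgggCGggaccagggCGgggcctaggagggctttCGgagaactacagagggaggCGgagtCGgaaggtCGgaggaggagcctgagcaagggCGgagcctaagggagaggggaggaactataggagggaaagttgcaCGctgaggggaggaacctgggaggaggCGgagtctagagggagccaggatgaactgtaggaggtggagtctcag
Peg3-Usp29, chr7:6730432-6730577, plus strand, between the opposed starts of both genes: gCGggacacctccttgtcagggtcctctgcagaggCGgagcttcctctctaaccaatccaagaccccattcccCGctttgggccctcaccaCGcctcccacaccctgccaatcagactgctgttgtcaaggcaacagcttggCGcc
Mest, chr6:30737800-30738049, plus strand: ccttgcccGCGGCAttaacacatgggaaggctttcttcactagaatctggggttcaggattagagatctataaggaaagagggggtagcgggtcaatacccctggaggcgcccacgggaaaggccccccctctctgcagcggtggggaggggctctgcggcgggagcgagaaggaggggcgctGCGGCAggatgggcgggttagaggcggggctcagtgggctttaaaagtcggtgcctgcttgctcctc
Nap1l5, chr6:58907127-58907261, minus strand: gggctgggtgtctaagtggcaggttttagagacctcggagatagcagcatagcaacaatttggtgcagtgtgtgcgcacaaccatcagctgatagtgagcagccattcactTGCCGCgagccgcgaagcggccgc

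RefSeq promoter windows, from 250 bases before to 50 bases after a start, were matched for 36 of the 44 members, with 52 windows in all. TGCCGC, searched on both strands, was in 14 of these 52 windows, belonging to 13 members, and in 11.6% of the 32851 windows of all genes. The 13 members were *Commd1*, *Copg2*, *Grb10*, *Igf2*, *Meg3*, *Mest*, *Nap1l5*, *Nnat*, *Plagl1*, *Snrpn*, *Snurf*, *Zdbf2* and *Zim1*. *Snrpn* and *Snurf* share the same window, and the 2 windows of *Mest* that hold the hexamer overlap almost whole, so these sequences are counted more than once. CAAGGTCA, the element known to be bound by NR5A1, was in 0 member windows and in 1.56% of all windows, and GCCATNTT, a core of the YY1 site, was in 2 member windows and in 6.05% of all windows. At least 15 CpG dinucleotides were found in 29 of the 52 member windows and in 34.6% of all windows, and each TGCCGC adds 1 of them. These matches describe the windows and were not tested against the expression values.

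Levels of the members are given per kb of exons where genes are compared with each other, and they ran from 0 for *Snurf* and 0.00599 CPM per kb for *Magel2* to 7296 CPM per kb for *Nnat*. Over the 7 samples without male replicate 1, the mean level reached 100 CPM per kb for 5 of the 44 genes, 10 CPM per kb for 17 and 1 CPM per kb for 34. The highest, *Nnat*, was at 7296 ± 3484 CPM per kb (SD, n = 7), followed by *Nap1l5* at 455 ± 169, *Gnas* at 391 ± 170.2, *Ndn* at 126 ± 25.1 and *Blcap* at 120.1 ± 31.2 CPM per kb. *Nap1l5* and *Gnas* differed by less than the SD of either over samples, as did *Ndn* and *Blcap*. The next genes were *Peg3* (57.5 ± 11.8 CPM per kb), *Mest* (54.1 ± 20.6), *Snrpn* (50.7 ± 9.24), *Dlk1* (41.1 ± 28.9) and *Rasgrf1* (41.0 ± 18.6), whose neighbours in this order did not differ beyond their spread. Among the 31383 entries with a count and a known length, the 44 members had a median percentile of 75.7, with *Snurf* set to 0, and 12 of them lay at or above the 90th percentile. With the longest transcript in place of all exons as the length, the same 10 genes were the highest.

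**Figure D1:**
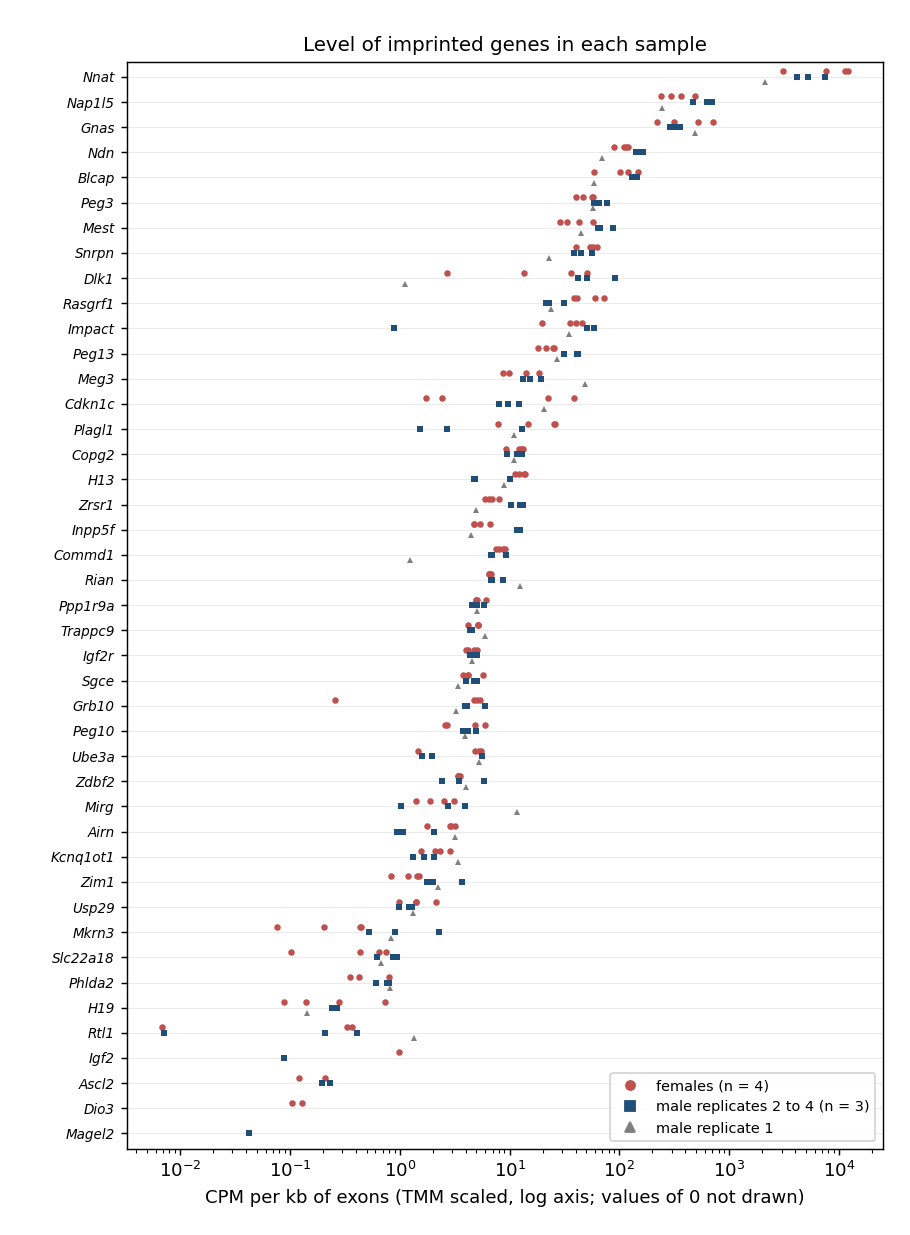
The horizontal axis gives the level of each imprinted gene per kb of exons on a log axis, and the genes are in the order of their mean over 7 samples. Points are the 4 females, the retained males and male replicate 1. *Nnat* stands alone at the top. A single sample lies far below the rest for *Impact* and for *Grb10*, and female replicate 4 and male replicate 1 do so for *Dlk1*. *Snurf* had 0 counts and is not drawn.

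*Nnat*, which encodes the membrane proteolipid neuronatin, was the most abundant imprinted transcript in each of the 8 samples per kb. In total CPM it was 5635, 14074, 20804 and 22266 in female replicates 1 to 4, and 9455, 7582 and 13597 in the retained males, with 3875 in male replicate 1. Samples of the sexes overlapped, the lowest female lying under each of the retained males and the other 3 females above. On the log2 scale the fitted change, males over females, was −0.64 (standard error 0.46; adjusted p = 0.513, quasi-likelihood test of edgeR). *Blcap*, a gene of biallelic and isoform dependent expression on the other strand, has *Nnat* inside its intron on chromosome 2. It was 181, 361, 451 and 309.7 CPM in females, 443, 398 and 415 CPM in the retained males and 177 CPM in male replicate 1.

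*Gnas*, which encodes the stimulatory G protein subunit that couples hormone receptors such as that of GHRH to cyclic AMP, is imprinted by isoform, and the counts add its maternal, paternal and biallelic transcripts. It was 5815, 2463, 3520.3 and 8012 CPM in females, 3221, 3621 and 3959 CPM in the retained males and 5445 CPM in male replicate 1. The females spread over a range that contained each male, and the log2 fold change was −0.48 (standard error 0.39; edgeR adjusted p = 0.564). Exons of the antisense transcript *Nespas* share 988 bases with *Gnas*, and the library kit does not mark the strand, so reads of such pairs cannot be told apart.

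Together the 44 members took 1.71%, 2.33%, 3.10% and 3.70% of all counts in female replicates 1 to 4, 1.66%, 1.59% and 2.08% in the retained males and 1.41% in male replicate 1. *Nnat* and *Gnas* made up most of this share in each sample, *Nnat* between 27.5% and 70.1% of the members' counts and *Gnas* between 11.5% and 38.7%. The other 42 members took between 0.435% and 0.560% of all counts in each of the 8 samples, a range in which the sexes overlapped.

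The retained males were then compared with the 4 females to ask which imprinted genes differ between male and female gonadotropes. Of the 44 members, 39 passed the filter on low counts. Of these 39, 1 had an adjusted p under 0.05 in edgeR's quasi-likelihood test, which is 2.56%, and the share among all 20152 entries tested was 2.34%. The member was *Inpp5f*, which was higher in males. Log2 fold changes of the 39 members were above 0 for 23 and below 0 for 16, with a median of 0.08 beside −0.03 for all entries. With DESeq2, 5 of the 39 were past the threshold (*Zrsr1*, *Peg13*, *Rasgrf1*, *Inpp5f* and *H13*), beside 2329 entries in all, or 11.6%.

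*Inpp5f* encodes a phosphoinositide phosphatase of the endosomal system, also called SAC2, and lies on chromosome 7 from 128611328 to 128696425 on the plus strand. Its imprinted isoform is known to start inside an intron and to be paternal, whereas the isoform from the upstream promoter printed above is biallelic, and the counts add both. It was 39.2, 39.2, 55.6 and 44.8 CPM in female replicates 1 to 4 and 99.9, 104 and 96.4 CPM in the retained males. Each of these 3 males was above each female, and the fitted ratio of the 2 groups was 2.20 (log2 fold change 1.14, standard error 0.16; edgeR adjusted p = 0.0286). In male replicate 1 it was 37.0 CPM, below each female, and with all 8 samples the log2 fold change was 0.91 (standard error 0.32; edgeR adjusted p = 0.369). The call was kept in 8 of 16 alternatives, with adjusted p-values from 7.32e-08 to 0.369. It was lost when any of male replicates 2, 3 and 4 or female replicates 1, 2 and 4 was left out, at adjusted p-values from edgeR of up to 0.100, with log2 fold changes between 1.10 and 1.17 in these fits.

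**Figure D2:**
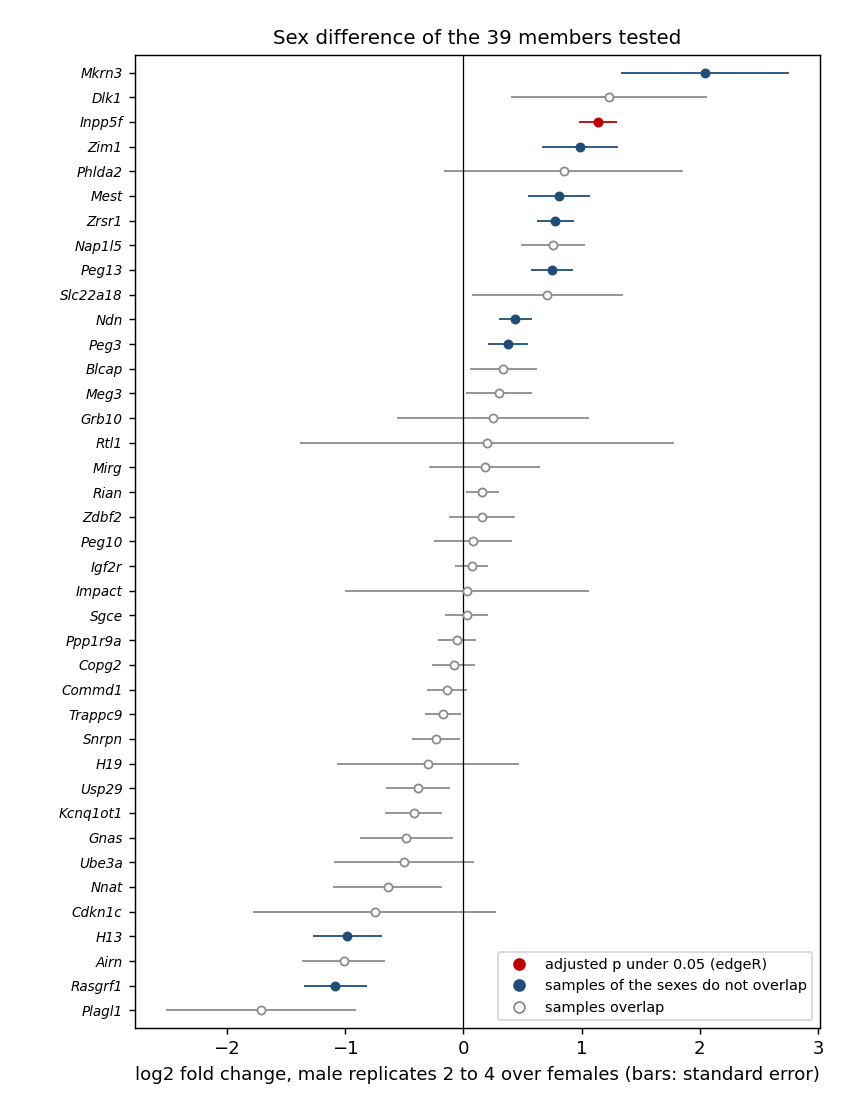
The horizontal axis gives the log2 fold change of the retained males over females for each of the 39 members tested, with bars of 1 standard error from edgeR. *Inpp5f*, in red at 1.14, is the member past the threshold, and filled blue points mark 9 further members whose samples of the sexes did not overlap.

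Samples of the sexes did not overlap for 10 of the 39 members, which is 25.6%, whereas 22.5% of all entries tested behaved in this way. The retained males were all above the females for 8 members, *Inpp5f*, *Peg3*, *Zim1*, *Mest*, *Ndn*, *Mkrn3*, *Zrsr1* and *Peg13*, and this held for 11.6% of all entries. They were all below the females for *Rasgrf1* and *H13*, and this held for 10.9% of all entries. Of the 8 genes whose retained males lay above the females, of which *Inpp5f* alone passed the threshold, 6 are paternal genes, of 20 paternal members tested, and *Zim1* is the maternal gene among them, of 14 tested.

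The *Peg3* cluster on chromosome 7 holds *Peg3* and *Usp29*, paternal genes that run in opposite directions from the stretch shown above, and *Zim1*, a maternal zinc finger gene. *Peg3*, which encodes a large zinc finger protein, was 539.7, 624, 754 and 769.9 CPM in females and 783, 866 and 1026 CPM in the retained males. The highest female and the lowest of these males were close, and the log2 fold change was 0.38 (standard error 0.17; edgeR adjusted p = 0.268), with 763 CPM in male replicate 1. *Zim1* was between 6.81 and 12.0 CPM in females, 16.4, 14.3 and 30.0 CPM in the retained males and 18.2 CPM in male replicate 1, so that the 4 males were above the 4 females. Its log2 fold change without male replicate 1 was 0.99 (standard error 0.32; edgeR adjusted p = 0.153). *Usp29*, a ubiquitin protease gene on the other side of the shared start, was between 17.7 and 38.5 CPM in females and between 17.7 and 23.3 CPM in the retained males, with a log2 fold change of −0.38 (standard error 0.27).

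*Mest*, a paternal gene for a hydrolase-like protein of the endoplasmic reticulum, was 115, 227, 131 and 168 CPM in females and 262, 249.6 and 344 CPM in the retained males. Its log2 fold change was 0.81 (standard error 0.26; edgeR adjusted p = 0.157), and at 177 CPM male replicate 1 lay inside the females. The maternal neighbour *Copg2* shares 912 exonic bases with it on the opposite strand and was between 47.4 and 68.3 CPM in all 8 samples. *Nap1l5*, a paternal gene without introns for a nucleosome assembly protein, was 444, 906, 671 and 545 CPM in females, 1154, 1296 and 863 CPM in the retained males and 450.1 CPM in male replicate 1. Of the retained males, 1 lay under the highest female, and the log2 fold change was 0.76 (standard error 0.27; edgeR adjusted p = 0.180).

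In the *Snrpn*-*Ube3a* cluster, the region of the Prader-Willi and Angelman syndromes in humans, the levels of the paternal genes lay far apart. *Ndn*, which encodes necdin, was 327, 426, 409.8 and 439 CPM in females and 525, 602 and 536 CPM in the retained males, with a log2 fold change of 0.44 (standard error 0.14; edgeR adjusted p = 0.149). Each of these males was above each female, whereas male replicate 1, at 257 CPM, was below all other samples. *Snrpn*, which encodes a small nuclear ribonucleoprotein, was 87.1, 135, 125 and 116 CPM in females, 84.2, 96.6 and 121 CPM in the retained males and 49.2 CPM in male replicate 1. Its upstream frame *Snurf*, at the same assembled locus, was listed at 0 in all samples, and the reads of these overlapping genes cannot be separated. *Magel2* had counts in 1 sample, male replicate 2, at 0.194 CPM. *Mkrn3*, a ubiquitin ligase gene known for its part in the timing of puberty, had between 4 and 37 counts in each female. It was 1.11, 0.196, 1.13 and 0.520 CPM in females, 5.75, 2.28 and 1.33 CPM in the retained males and 2.11 CPM in male replicate 1. All 4 males were above all 4 females and the log2 fold change was 2.04 (standard error 0.71; edgeR adjusted p = 0.178), or 1.26 without male replicate 2 (edgeR adjusted p = 0.497). *Ube3a*, the maternal ubiquitin ligase gene, was between 100.3 and 117 CPM in female replicates 1, 3 and 4, male replicate 1 and male replicate 4, and between 30.1 and 40.2 CPM in female replicate 2 and male replicates 2 and 3. *Snhg14*, the paternal antisense RNA of *Ube3a*, belongs to the other imprinted genes and was between 14.5 and 29.8 CPM in females and between 8.76 and 11.7 CPM in the retained males (log2 fold change −1.31, standard error 0.28; edgeR adjusted p = 0.0609). It shares 1803 exonic bases with *Ube3a* on the opposite strand, where reads cannot be told apart, and it is an entry at the same assembled locus as *Snrpn*.

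The small imprinted genes *Zrsr1* and *Peg13*, which lie inside larger genes, had each of the retained males above each female without passing the threshold. *Zrsr1*, a paternal splicing factor gene within *Commd1*, shares 412 exonic bases with it on the opposite strand, so reads there cannot be told apart. It was 29.5, 31.2, 36.1 and 27.1 CPM in females and 59.5, 55.7 and 46.8 CPM in the retained males (log2 fold change 0.78, standard error 0.16; edgeR adjusted p = 0.0580). In male replicate 1 it was 22.2 CPM, below all other samples. *Peg13*, a paternal noncoding RNA inside an intron of *Trappc9*, was 102, 85.3, 119.8 and 117 CPM in females, 196, 198 and 147 CPM in the retained males and 127 CPM in male replicate 1 (log2 fold change 0.75, standard error 0.18; edgeR adjusted p = 0.0752). The log2 fold changes were −0.14 (standard error 0.17) for *Commd1* and −0.17 (standard error 0.15) for *Trappc9*, and in both the sexes overlapped.

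*Rasgrf1* and *H13* were the members whose retained males were all lower than the females. *Rasgrf1*, a paternal gene for a calcium regulated exchange factor of RAS that is known for its effect on growth, was 431, 451, 658 and 794 CPM in females, 349, 239 and 254 CPM in the retained males and 262 CPM in male replicate 1. The 4 males lay below the 4 females, and the log2 fold change was −1.08 (standard error 0.27; edgeR adjusted p = 0.0846). *H13*, which encodes the signal peptide peptidase and is imprinted through its polyadenylation sites, was 101, 123, 108 and 120.4 CPM in females, 89.1, 43.6 and 42.3 CPM in the retained males and 78.9 CPM in male replicate 1 (log2 fold change −0.98, standard error 0.29; edgeR adjusted p = 0.129). The paternal gene *Mcts2* in its intron, one of the other imprinted genes, had a log2 fold change of −0.01 (standard error 0.16). Without male replicate 2, *H13* was past the threshold at −1.42 (standard error 0.17; edgeR adjusted p = 0.0446).

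**Figure D3:**
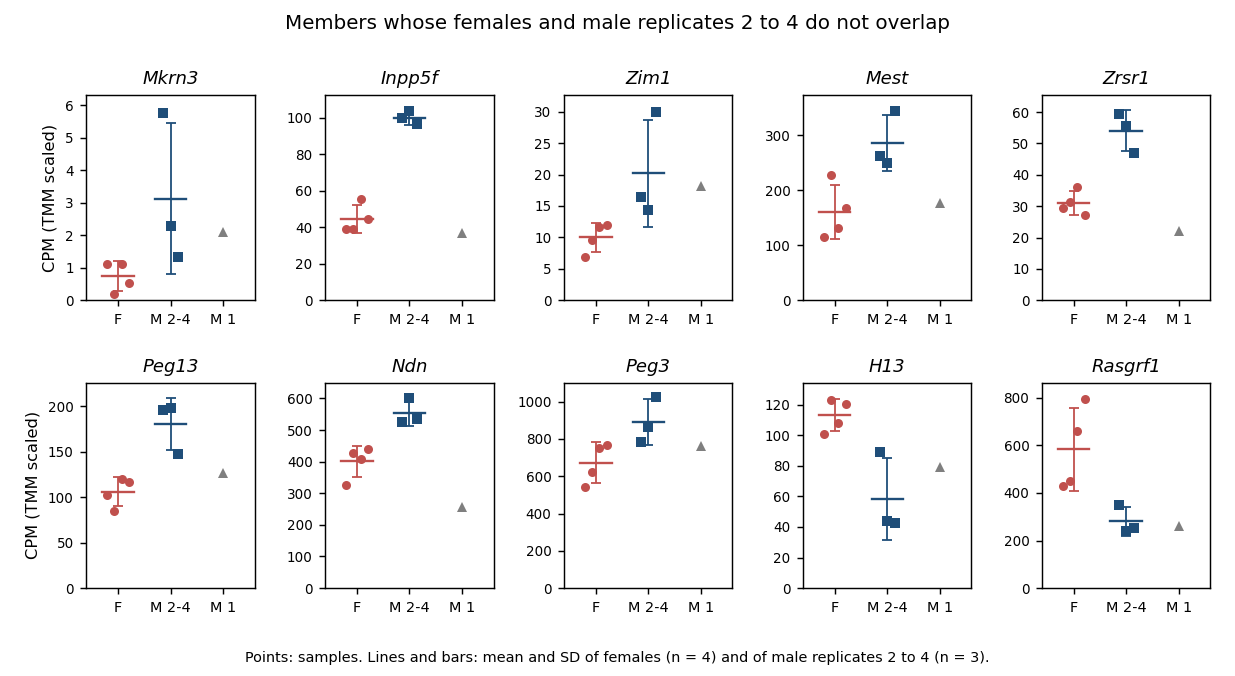
Each panel gives the CPM of a member in the females (F), the retained males (M 2-4) and male replicate 1 (M 1), on an axis that starts at 0, with the mean and SD of the first 2 groups. Retained males are above females in 8 panels and below in 2, and for *Inpp5f* male replicate 1, at 37.0 CPM, lies below each female.

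The *Dlk1*-*Dio3* cluster on chromosome 12 holds the maternal noncoding RNAs *Meg3*, *Rian* and *Mirg* and the paternal coding genes *Dlk1*, *Rtl1* and *Dio3*. Of the 5 members tested, 0 were past the threshold between the sexes in edgeR, 0 had an unadjusted p under 0.05 and 0 were called by DESeq2, where the shares of all entries were 2.34%, 19.9% and 11.6%. *Dlk1*, a transmembrane ligand of the Notch family that restrains differentiation, was 76.5, 285, 205 and 15.3 CPM in females and 237, 287 and 519 CPM in the retained males (log2 fold change 1.23, standard error 0.83; edgeR adjusted p = 0.482), and with a sample left out the log2 fold change was between 0.83 without male replicate 4 and 1.82 without female replicate 2. The lowest value was 6.28 CPM in male replicate 1, which is 0.0264 times the lowest of the other males. *Gh*, the leading somatotrope marker, was 12410.2, 58207, 46740.5 and 51911 CPM in female replicates 1 to 4, 64444, 76548 and 143693 CPM in the retained males and 30284 CPM in male replicate 1, and its part in the values of *Dlk1* was not tested. *Dio3*, the deiodinase that inactivates thyroid hormone, had counts in 2 females alone, at 0.214 and 0.260 CPM.

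The maternal RNAs of this cluster, and *Kcnq1ot1*, *Airn* and *Commd1* below, are given in every sample because their place in male replicate 1 had been seen. *Meg3* was 179.7, 157, 254 and 334 CPM in females, 239, 280.1 and 350.1 CPM in the retained males and 874 CPM in male replicate 1, or 2.50 times the highest of the other males. *Rian* was 117, 118, 121 and 124 CPM in females, 123, 125 and 160.3 CPM in the retained males and 227 CPM in male replicate 1. *Mirg* was 18.6, 10.2, 13.6 and 22.9 CPM in females, 7.46, 20.3 and 28.6 CPM in the retained males and 84.8 CPM in male replicate 1. All 3 RNAs were thus highest in male replicate 1, and in the other 7 samples the sexes overlapped for each of them. The paternal *Rtl1*, a gene derived from a retrotransposon that lies on the other strand of microRNA genes of the cluster, was at most 2.58 CPM in the other 7 samples and 8.51 CPM in male replicate 1.

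These RNAs host microRNA genes, whose mature products were not measured here. RefSeq places 26 mature microRNAs of 14 genes within *Mirg*, 6 within *Rian* and 3 within *Meg3*. Examples are shown with the seed (bases 2 to 8) in capitals, the last pair because these were the mature microRNAs of the set that shared a seed.
mmu-miR-770-5p, in Meg3: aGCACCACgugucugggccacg
mmu-miR-370-3p, in Rian: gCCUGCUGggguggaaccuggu
mmu-miR-453, in Mirg: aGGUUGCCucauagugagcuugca
mmu-miR-496a-5p, in Mirg: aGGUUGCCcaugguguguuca

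**Figure D4:**
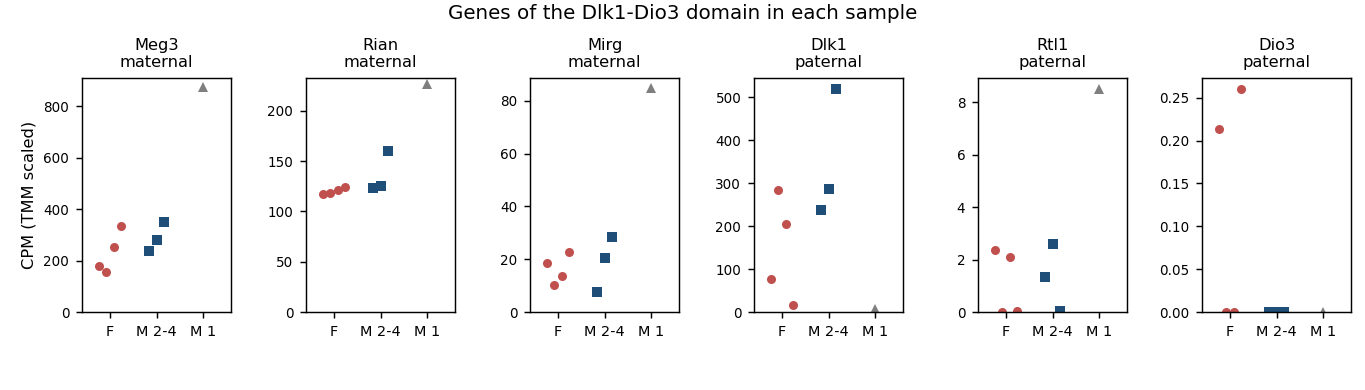
Panels give the CPM of the 6 genes of the *Dlk1*-*Dio3* cluster in females (F), the retained males (M 2-4) and male replicate 1 (M 1), each axis starting at 0, with the known direction of imprinting under the gene name. The 3 maternal RNAs and *Rtl1* are highest in male replicate 1, where *Dlk1* is lowest at 6.28 CPM.

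In the *Kcnq1ot1* cluster of chromosome 7, a long paternal antisense RNA silences maternal genes in cis. *Kcnq1ot1* was 266, 196, 217 and 145 CPM in females, 123, 193 and 155 CPM in the retained males and 316 CPM in male replicate 1, its highest value. It shares 121 exonic bases with *Kcnq1* on the opposite strand, and reads there cannot be told apart. *Cdkn1c*, the maternal inhibitor of cyclin dependent kinases also called p57, was 79.3, 45.9, 3.55 and 4.98 CPM in females, 24.7, 19.7 and 16.3 CPM in the retained males and 41.8 CPM in male replicate 1. The females thus spanned 22.3-fold while the retained males lay between their extremes, and the log2 fold change was −0.75 (standard error 1.03; edgeR adjusted p = 0.763). Its direction turned without female replicate 1 (0.15) and with the replicate block (1.12). *Phlda2* and *Slc22a18*, further maternal genes, were at most 0.922 and 1.59 CPM, and *Ascl2*, a gene of the placenta, was at most 0.375 CPM.

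*Igf2*, the fetal growth factor, and its maternal neighbour *H19* were low in most samples. *H19* was 0.343, 0.687, 1.81 and 0.216 CPM in females, 0.661, 0.637 and 0.596 CPM in the retained males and 0.351 CPM in male replicate 1. *Igf2* had 132 counts, or 5.65 CPM, in female replicate 1, 0.505 CPM in male replicate 4 and 0 counts in the other 6 samples, and it shares exons with *Gm49394*, to which between 0 and 2.90 CPM were assigned. *Igf2r*, the maternal receptor that clears IGF2, was 46.6, 37.5, 38.8 and 43.7 CPM in females, 40.9, 47.3 and 44.8 CPM in the retained males and 42.1 CPM in male replicate 1 (log2 fold change 0.07, standard error 0.14; edgeR adjusted p = 0.861). Its paternal antisense RNA *Airn* was 6.34, 10.3, 11.4 and 10.6 CPM in females, 3.85, 7.34 and 3.39 CPM in the retained males and 11.5 CPM in male replicate 1 (log2 fold change −1.01, standard error 0.35; edgeR adjusted p = 0.170).

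*Plagl1*, a paternal zinc finger gene also called Zac1 that is known to regulate other imprinted genes, was 115, 61.2, 201 and 199 CPM in females and 101, 12.1 and 21.2 CPM in the retained males. In male replicate 1 it was 85.7 CPM, and male replicates 3 and 4 were the 2 lowest of the 8 samples. The log2 fold change of −1.71 (standard error 0.80) had an edgeR adjusted p of 0.293, and without male replicate 2 it was −3.14 (edgeR adjusted p = 0.115). *Zdbf2*, a paternal zinc finger gene, was 42.5, 42.9, 44.2 and 45.2 CPM in females, 30.9, 43.9 and 74.4 CPM in the retained males and 50.9 CPM in male replicate 1, so that the retained males spread around a narrow range of females. In the *Peg10* cluster *Ppp1r9a*, a maternal gene for an actin binding protein, was 71.6, 89.3, 73.3 and 71.9 CPM in females, 73.1, 66.8 and 85.3 CPM in the retained males and 73.2 CPM in male replicate 1. The paternal genes *Peg10*, of retrotransposon origin, and *Sgce*, which encodes epsilon-sarcoglycan, had log2 fold changes of 0.08 (standard error 0.33) and 0.03 (standard error 0.18).

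For 11 of the 39 members, the highest of the 7 samples was over 4 times the lowest, and this held for 38.0% of all entries tested. In 3 of these members a sample lay far below the rest. *Impact*, a paternal regulator of translation on chromosome 18, was 4.51 CPM (116 counts) in male replicate 2, 299 and 262 CPM in male replicates 3 and 4, 101, 208, 233 and 181 CPM in females and 180.1 CPM in male replicate 1. Its log2 fold change of 0.03 had a standard error of 1.03. *Grb10*, an adaptor of insulin signalling with maternal expression in most tissues and paternal expression in neurons, was 2.36 CPM in female replicate 1, 46.0, 48.9 and 43.2 CPM in the other females, 36.9, 36.1 and 54.9 CPM in the retained males and 29.9 CPM in male replicate 1. *Dlk1* was more than 10 times below its median in female replicate 4 and male replicate 1. Such drops were found throughout the table. Of the 7535 entries with a median above 20 CPM, between 116 and 175 were more than 10 times below their median in each sample, and the cause was not tested.

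Members in male replicate 1 were compared with the other males as a description, with no test of the difference. Of the 39 members tested, 11 were above the highest of the retained males in male replicate 1, beside 35.9% of all entries, and 15 were below the lowest, beside 34.2% of all entries. The 26 members outside the range, beside 70.1% of all entries, compare with 19, 14 and 19 for male replicates 2, 3 and 4, each set against the other 3 males (44.2%, 38.7% and 43.8% of all entries). With a margin of 1.5 times beyond the range, the counts were 16 for male replicate 1 and 3, 1 and 4 for the others, beside 33.5%, 10.7%, 9.02% and 12.5% of all entries. By direction of imprinting, 6 of 14 maternal members were above and 2 below, whereas 4 of 20 paternal members were above and 10 below. Of the paternal members above, *Kcnq1ot1*, *Rtl1* and *Usp29* share exonic bases with genes on the opposite strand, and *Airn* lies across *Igf2r*. Further members share such bases, as do *Meg3*, *Cdkn1c* and *Mest*. The libraries do not mark the strand, so reads there cannot be assigned to a direction of imprinting. By type, 5 of 7 noncoding RNAs were above (*Meg3*, *Rian*, *Mirg*, *Kcnq1ot1* and *Airn*) and 2 were below (*H19* and *Peg13*, at 0.589 and 0.861 times the lowest of the other males). Male replicate 1 also had 110649.9 CPM of *Malat1* and 361 CPM of *Neat1*, RNAs held in the nucleus, against at most 15191 and 77.4 CPM in the other 7 samples, and their part in these values was not tested.

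Among the members low in male replicate 1 were the abundant paternal genes *Nnat*, *Nap1l5*, *Ndn*, *Snrpn*, *Mest* and *Peg3*, at between 0.488 and 0.976 times the lowest of the other males. *Commd1*, a maternal regulator of copper transport and NF-kappaB, was 47.3, 44.5, 52.1 and 53.5 CPM in females, 40.3, 41.1 and 54.8 CPM in the retained males and 7.28 CPM in male replicate 1. At the same assembled locus, *Gm28048* had 29.7 CPM in male replicate 1 and from 101 to 104 CPM in the retained males, and *B3gnt2* had 47.1 CPM and from 0.0749 to 2.18 CPM. Female replicates 2 and 3 also had high *B3gnt2* (54.7 and 55.2 CPM) and low *Gm28048* (36.0 and 40.5 CPM), with *Commd1* at 44.5 and 52.1 CPM. How reads were divided among these entries was not tested. In all, 10 members shared an assembled locus with other entries.

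**Figure D5:**
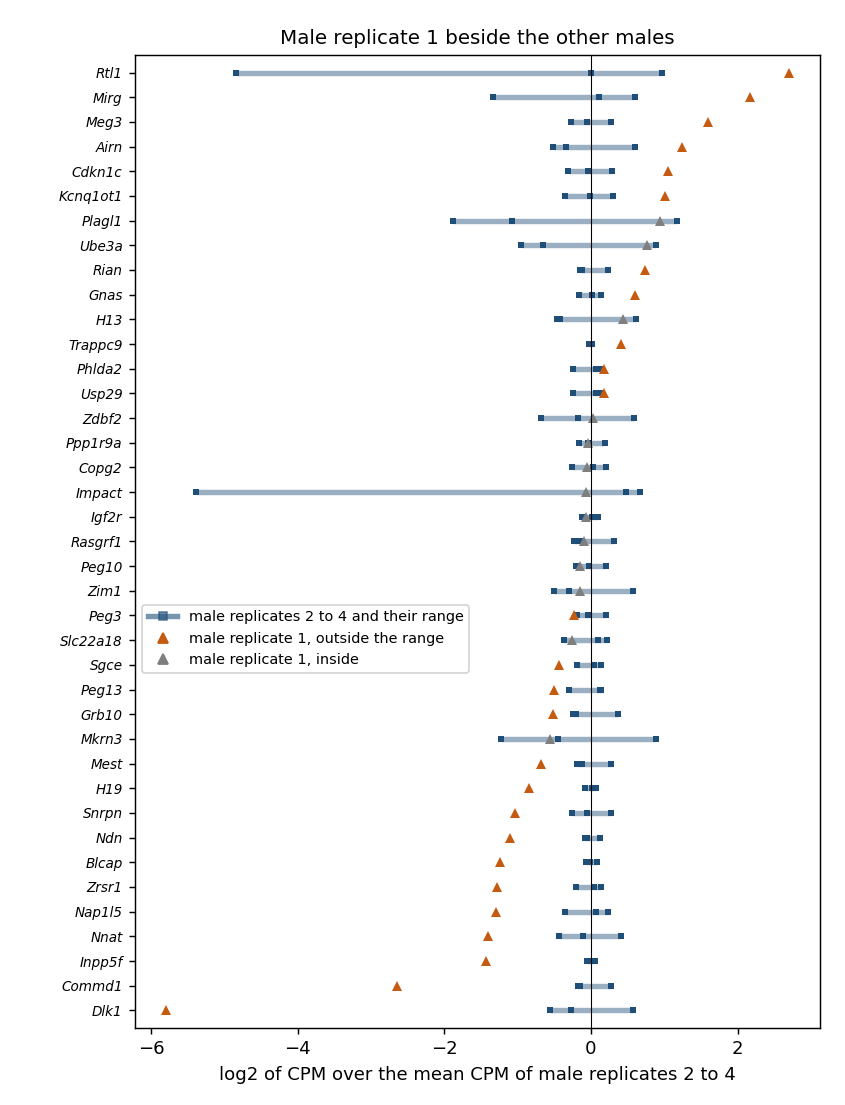
The horizontal axis gives the log2 of CPM over the mean of the retained males for the 39 members tested; blue squares and bars are these 3 males and their range, and triangles are male replicate 1. Orange triangles mark the 26 members outside the range, from *Dlk1* and *Commd1* on the low side to *Mirg* and *Rtl1* on the high side.

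Further imprinted genes outside the 44 were read from the same fit. Of 53 such genes, 52 were in the table, 42 were tested and 7 were past the threshold in edgeR, 4 higher in males and 3 higher in females, which is 16.7% beside 2.34% of all entries. An unadjusted p under 0.05 was found for 15 of the 42, beside 19.9% of all entries, and DESeq2 called 14, beside 11.6%. These genes were listed with earlier results of these data known, so the share is a description. Those higher in males were *Asb4* (log2 fold change 1.91, standard error 0.22), a gene of the *Peg10* region, *Qpct* (1.53, standard error 0.21), which encodes the enzyme that forms pyroglutamate at the ends of peptide hormones such as GnRH, the potassium channel gene *Kcnk9* (2.09, standard error 0.35), whose locus includes *Peg13* and *Trappc9*, and *Th* (5.93, standard error 1.04), which encodes tyrosine hydroxylase. *Asb4* was between 21.5 and 33.4 CPM in females and 116, 84.0 and 129 CPM in the retained males, with 34.6 CPM in male replicate 1, just above the highest female. *Qpct* was between 109 and 157 CPM in females, between 285 and 457 CPM in the retained males and 116 CPM in male replicate 1. *Kcnk9* was between 8.45 and 21.1 CPM in females, 58.5, 75.5 and 49.2 CPM in the retained males and 41.5 CPM in male replicate 1. *Th* was 0, 0, 0.0918 and 0.433 CPM in females, 3.77, 11.3 and 10.2 CPM in the retained males and 4.30 CPM in male replicate 1. For both genes male replicate 1 was thus above each female. Female replicates 1 to 3 were at or under the floor of 3 counts for *Th*, so the size of its fold change is not well determined.

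Those higher in females were the secreted matrix gene *Smoc1* (log2 fold change −2.21, standard error 0.19), *Begain* (−2.10, standard error 0.34), which lies beside the *Dlk1*-*Dio3* cluster, and *Rasl11a* (−1.40, standard error 0.25). *Smoc1* was between 119 and 133 CPM in females, 26.9, 34.8 and 21.7 CPM in the retained males and 50.4 CPM in male replicate 1. *Begain* was between 12.5 and 22.3 CPM in females, 3.15, 3.75 and 6.28 CPM in the retained males and 34.1 CPM in male replicate 1, above each female. *Rasl11a* was between 33.2 and 57.1 CPM in females, between 12.8 and 20.6 CPM in the retained males and 36.4 CPM in male replicate 1, inside the females. The edgeR adjusted p-values of the 7 genes were between 0.00875 and 0.0453.

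Of 20 factors that keep or read imprints, 17 were tested and 0 were past the threshold in edgeR, with 2 at an unadjusted p under 0.05 (19.9% of all entries) and 1 called by DESeq2 (11.6% of all entries). The retained males were all below the females for 5 of the 17 and all above for 0, beside 10.9% and 11.6% of all entries. *Zfp445* was between 73.1 and 101 CPM in the 8 samples and *Zfp57* between 0.974 and 4.52 CPM. *Trim28*, the corepressor recruited by both, was 52.8, 59.2, 45.8 and 75.0 CPM in females, 34.4, 30.4 and 32.2 CPM in the retained males and 79.7 CPM in male replicate 1 (log2 fold change −0.87, standard error 0.20; edgeR adjusted p = 0.0747). Of 11 partners of the network around *Plagl1* and *Peg3*, 11 were tested and 0 were past the threshold in edgeR, with 2 at an unadjusted p under 0.05 and 2 called by DESeq2, beside the same shares of all entries, and their median log2 fold change was 0.03. Samples of the sexes did not overlap for 4 of the 11, beside 22.5% of all entries, with the retained males above the females for *Insr* and *Magee1* and below them for *Igfbp2* and *Igf1r*, none past the threshold. *Igfbp2*, which encodes an IGF binding protein, was between 5.74 and 10.8 CPM in females and between 3.11 and 3.67 CPM in the retained males (log2 fold change −1.21, standard error 0.26; edgeR adjusted p = 0.0647). *Insr*, the insulin receptor gene, was between 40.7 and 62.1 CPM in females and between 81.0 and 103 CPM in the retained males (log2 fold change 0.74, standard error 0.18; edgeR adjusted p = 0.0852).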

How the data were processed

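Libraries were made with a low input kit that does not mark the strand. The authors trimmed reads with cutadapt, mapped them to mm10 (GRCm38) with STAR and deposited raw counts per gene from featureCounts, with default parameters and without normalization. Of the entries, 28933 are named by an assembled locus, a form that the methods do not explain. Whether featureCounts alone gave the deposited counts is therefore not known. The sexes, without male replicate 1, were compared in R 4.3.3 by the quasi-likelihood test of edgeR 4.0.16, with TMM factors, the filterByExpr filter, Benjamini-Hochberg adjustment over all entries tested and a threshold of 0.05. Standard errors were computed as the absolute log2 fold change over the square root of F. CPM per sample used TMM factors over all 8 samples. Gene lengths and positions were taken from GENCODE M21 by symbol, and promoter and microRNA sequences from RefSeq. DESeq2 (version 1.42.0) and Python 3.11.15 were also used, and the alternatives were other scaling factors, filters, samples and counts summed per locus.

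The members and lists were chosen with earlier results of these data known. Values in every sample were given for members past the threshold, members without overlap and with an absolute log2 fold change of at least 1, the 10 highest per length and the highest member of each cluster. Of the other imprinted genes, the imprint factors and the network partners, the genes past the threshold were named, up to 5 in each direction, and further genes were chosen after their values were seen. The paper's whole pituitary samples were not used here.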

Additional observations from a re-analysis of the deposited data

Results flagged for a closer look

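Among the 39 members tested, the females and the 4 males, male replicate 1 included, gave 78 groups of 4 samples, of which 6 held a sample far from the others by Dixon's criterion at the 95% level, where chance gives about 1 in 20, or 3.90. *Inpp5f* had 37.0 CPM in male replicate 1, where the other males had 96.4 to 104 CPM. *Trappc9* had 47.0 CPM in male replicate 1, above 34.9 to 35.9 CPM in the other males, and 33.3 CPM in female replicate 3, below 40.8 to 41.4 CPM in the other females. Female replicate 1 had 2.36 CPM of *Grb10*, where the other females had 43.2 to 48.9 CPM. Female replicate 2 had 30.1 CPM of *Ube3a*, where the others had 100.3 to 114 CPM, and 89.3 CPM of *Ppp1r9a*, where the others had 71.6 to 73.3 CPM. No cause was tested for these samples.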

How the results depend on the processing

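Over all entries, 471 were past the threshold, and the count was 2329 with DESeq2, 808 with library size alone, 177 with no filter beyond 1 count, 67 with all 8 samples and between 88 and 171 with a sample left out. For the members the count of 1 was 5 with DESeq2, 2 with library size alone (*Rasgrf1* and *Inpp5f*), 2 with at least 10 counts in every sample (*Zrsr1* and *Inpp5f*), 0 with all 8 samples and between 0 and 1 with a sample left out, where the call was *Inpp5f* without female replicate 3 and *H13* without male replicate 2. With the replicate block, 0 entries and 0 members were past the threshold in edgeR, 2954 entries had an unadjusted p under 0.05, and same-numbered samples shared no deviation, with correlations between −0.018 and 0.002, so they were not treated as paired. Library size alone moved the median log2 fold change of all entries to −0.24 and the calls from 198 higher in males and 273 higher in females to 133 and 675, and it reversed *Igf2r* (−0.15), *Impact* (−0.17) and *Zdbf2* (−0.06). The replicate block reversed *Cdkn1c* (1.12), *Grb10* (−0.17) and *Impact* (−1.0). With a sample left out, the log2 fold change ranged from −0.59 to 0.60 for *H19*, from −1.11 to 0.15 for *Cdkn1c*, from −0.15 to 0.06 for *Ppp1r9a*, from −0.11 to 0.47 for *Grb10*, from −0.46 to 0.61 for *Impact* and from −0.25 to 0.41 for *Zdbf2*. The cause of these reversals was not tested. Of 366 values of the 23 members named under alternatives, 336 kept their direction and side of the threshold. Members of male replicate 1 outside the range of the other males were 16 with a margin of 1.5 times in place of 26. The mean share of counts taken by the members in the retained males was 1.78%, and it was 2.17% of a total without the hormone genes. *Dio3*, *Ascl2* and *Magel2* were near the floor at these depths and were not tested, *Igf2* did not pass the filter because few samples had counts, and *Snurf*, whose 216 exonic bases all lie in exons of *Snrpn*, was listed at 0.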
